A study of Mus musculus with 6 samples.

Results

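A set of 9 genes that mark B lymphoid progenitors (Cd79a, Cd79b, Cd22, Vpreb1, Vpreb3, Ebf1, Blnk, Dntt and Rag2) was followed in granulocyte-macrophage progenitors (GMPs), the bone marrow cells that give rise to granulocytes and monocytes. The genes were taken by symbol from a given list, and all 9 were found among the 37620 gene rows of the deposited table. RNA sequencing was done on 6 libraries of GMPs sorted from C57BL/6 mice on absence of lineage markers and Sca1, presence of c-Kit and CD34, and Fcγ receptor staining. The control group held 3 libraries from Bap1 f/f mice without Cre. The other group held 3 libraries from Bap1 f/f mice that carry Cre under the Mx1 promoter (labelled Bap1 knockout). Per the labels, mice of both groups were 65 days old and were given polyI:polyC, an interferon inducer, when 42 days old; the series' design text gives a younger age for the injections. Both groups carry the floxed Bap1 alleles and had the interferon stimulus, and Cre was carried by the knockout-labelled group alone, so Cre itself and deletion of Bap1 cannot be told apart. The Mx1 promoter is known to answer interferon in many cell types, so Cre is not specific to GMPs, and recombination was not measured here. The sources used here do not name the antibodies of the lineage stain.

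B cells arise in the marrow from common lymphoid progenitors. The transcription factor EBF1 switches on the B cell programme, including the genes of the pre-B cell receptor. RAG proteins cut at immunoglobulin gene segments so that these can be joined, and terminal transferase (Dntt) adds bases at the joints. A rearranged heavy chain is then tested on the cell surface together with the surrogate light chain (VPREB1 and λ5, the product of Igll1) and the signalling chains CD79A and CD79B. The adaptor BLNK acts downstream, inside the cell. Some of these genes are also read at low levels in multipotent and dendritic progenitors, before or outside B cell commitment.

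Promoter sequences are shown because 8 of the 9 genes, all but Cd79b, have an entry in the RefSeq promoter table (build GRCm38.p6) and moved in the same direction. The 250 bases before each start were searched on both strands for 6 short motifs: the EBF motif (TCCC and GGGA with any pair of bases between), the octamer ATGCAAAT bound by POU2F factors, the E-boxes CAGGTG and CAGCTG, the PU.1 purine box GAGGAA and the Ikaros core TGGGAA. No matches of different motifs overlapped. The EBF motif was found in Cd22 alone, 49 bases before the start (0.779% of 32851 promoters hold it). The octamer was found in Vpreb3, 45 bases before the start, and in Blnk, 130 bases before it (1.6% of promoters). The box CAGGTG lay in Cd79a, Cd22, Vpreb1 and Blnk (17.2% of promoters) and CAGCTG in none of the 8 (13.0%). The purine box lay in Cd79a, Vpreb1, Rag2 and a promoter of Ebf1 (23.3%), and the Ikaros core in Cd22 and the same Ebf1 promoter (21.6%). The bases after the start of that Ebf1 promoter were not found in a GENCODE M21 transcript of Ebf1, so its orientation is unchecked. The other Ebf1 promoter, where they were found, held no match. These matches describe letters in the window and are not shown to be bound. The Blnk window lies wholly in GENCODE M21 exons. The Vpreb1 matches and the CAGGTG match of Cd22 lie outside the longest exon-free stretch of their windows. For 4 promoters the longest stretch in no GENCODE M21 exon is printed, in the direction of transcription, with motif matches in capitals. These are Cd22 at chr7:30879029-30879176 (minus strand), Cd79a at chr7:24897247-24897380 (plus), Vpreb3 at chr10:75948050-75948299 (plus) and Rag2 at chr2:101624462-101624711 (plus), all GRCm38. The Vpreb3 and Rag2 stretches cover all 250 bases, those of Cd22 and Cd79a only 148 and 134. Ebf1, Dntt and Vpreb1 also have exon-free stretches, which are not printed, and the Dntt window held no match.
Cd22: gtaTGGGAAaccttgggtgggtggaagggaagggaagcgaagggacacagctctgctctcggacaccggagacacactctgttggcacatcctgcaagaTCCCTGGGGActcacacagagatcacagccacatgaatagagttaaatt
Cd79a: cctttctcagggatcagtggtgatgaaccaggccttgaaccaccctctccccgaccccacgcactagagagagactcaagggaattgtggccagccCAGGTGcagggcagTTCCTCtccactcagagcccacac
Vpreb3: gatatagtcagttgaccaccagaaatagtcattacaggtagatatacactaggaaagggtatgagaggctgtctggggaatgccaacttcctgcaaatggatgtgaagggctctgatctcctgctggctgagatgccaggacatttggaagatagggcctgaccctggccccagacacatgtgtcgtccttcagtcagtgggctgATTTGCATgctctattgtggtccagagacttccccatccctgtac
Rag2: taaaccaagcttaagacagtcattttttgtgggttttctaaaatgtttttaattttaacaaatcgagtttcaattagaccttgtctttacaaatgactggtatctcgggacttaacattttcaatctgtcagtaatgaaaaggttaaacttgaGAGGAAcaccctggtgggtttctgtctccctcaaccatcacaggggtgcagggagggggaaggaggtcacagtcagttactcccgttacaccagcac

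The libraries held 19.5 to 25.9 M gene reads, with reads in 17090 to 17509 genes. Bap1, the deubiquitinase targeted in these mice, stood at 1343, 998.5 and 1076 normalized counts in the control libraries and at 2671, 3309 and 2968 in the libraries labelled knockout, which goes against the label. A count over the whole gene includes exons outside the deleted part and does not check the deletion, so directions here belong to libraries with that label. All 11 GMP markers were read in all 6 libraries, led by Mpo at 509900 ± 18680 and 635300 ± 122900 normalized counts (SD, n = 3 each). The labels do not tie libraries to separate animals, so p-values measure the spread between these libraries, which may be technical. Reads came from PCR without molecular identifiers, so floors and counting intervals cover counting error only.

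All 9 B lymphoid progenitor genes were read in every control library and fell in the libraries labelled knockout. The calls are by limma on log2(normalized count + 1), with Benjamini-Hochberg adjustment over 14391 genes, of which 26.8% were called, 15.0% lower and 11.8% higher. By edgeR 26.0% of genes were called (14.4% lower) and by DESeq2 25.2% (13.8% lower), and all 9 were again among those called lower. In each of the 9, every control library lay above every knockout-labelled library, as was so for 22.5% of the genes tested. The changes ran from 1.58-fold lower for Cd79b to no reads at all for Cd22 and Vpreb3. In 6 of the 9 the knockout-labelled mean was under the filter of 10 normalized counts, so these were tested only because control libraries were high, and their count among the called genes is a description. In bulk libraries, fewer cells of a type and less RNA per cell cannot be told apart.

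**Figure D1:**
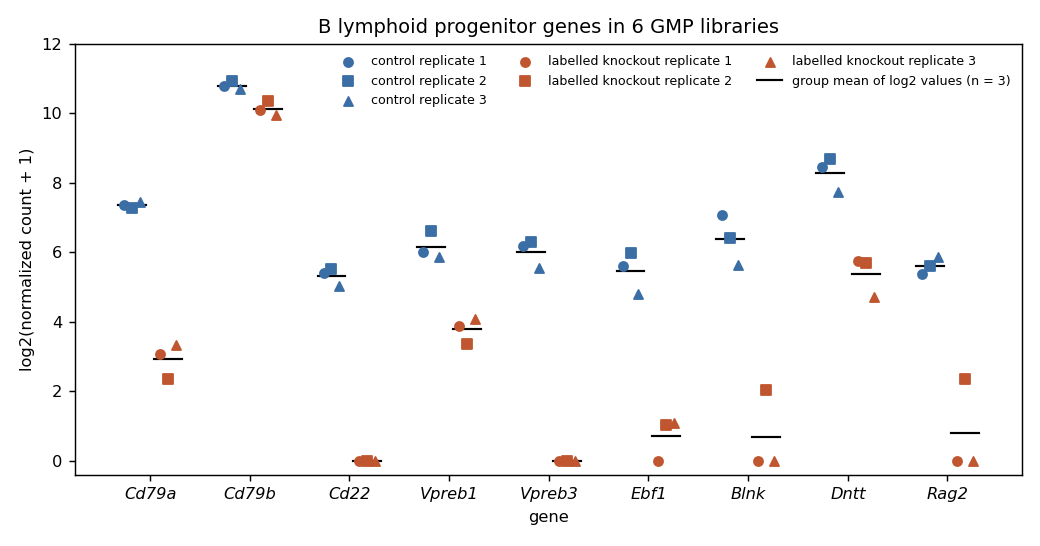
Log2(normalized count + 1) of the 9 genes in each of the 6 libraries: blue, control; orange, labelled knockout; marker shape, replicate number; black bars, group means of the log2 values (n = 3). In all 9 genes the control points lie above the knockout-labelled points, by the smallest distance in Cd79b, and Cd22 and Vpreb3 lie at 0 in the 3 knockout-labelled libraries.

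Ebf1, the transcription factor that starts the B cell programme, stood at 47.98, 62.11 and 26.74 normalized counts in control replicates 1, 2 and 3. The knockout-labelled libraries had 0, 1 and 1 Ebf1 reads, compared with 149 in the control libraries together. The ratio of reads, scaled for depth, was 62.7 (95% exact counting interval 17.1 to 523). The log2 fold change, which for genes left at 0 to 4 reads depends on the pseudocount, was -4.75 (SE 0.74, limma adjusted p = 0.000882). The lowest control library, replicate 3, held 30 reads, still far above any knockout-labelled library.

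The recombination genes Dntt and Rag2 differed in how much was left. Dntt, the template-independent polymerase, was at 353.6, 413.7 and 211.2 normalized counts in control and kept 53.34, 51.02 and 25.12 in the group labelled knockout. Its groups lay far apart, with some Dntt left in each library. The means were 326.2 ± 104 and 43.16 ± 15.66 (SD, n = 3 each), 7.56-fold lower (log2 fold change -2.91, SE 0.36, limma adjusted p = 0.000199). Rag2, a subunit of the recombinase, was at 40.87, 47.77 and 57.05 in control. The knockout-labelled libraries held 4 Rag2 reads, all in replicate 2, so that replicates 1 and 3 were at 0. The means were 48.56 ± 8.117 and 1.388 ± 2.404 (log2 fold change -4.83, SE 0.81, limma adjusted p = 0.00133). Rag1, the catalytic subunit, had almost no reads in either group, at 1.781 ± 1.783 in control and 0 in the knockout-labelled libraries, and was not tested. Rag2 shares 6.07% of its exon bases with B230118H07Rik (Iftap in RefSeq) on the opposite strand, a more abundant gene at 1653 ± 49.81 and 407.8 ± 147.7 normalized counts, which also fell (log2 fold change -2.09, limma adjusted p = 9.61e-05). The sources used here do not give whether reads were counted by strand. Reads labelled ambiguous were set apart from the gene counts, at 0.12 to 0.13% of reads. Knockout replicates 1 and 3 held 401 and 220 reads of B230118H07Rik and 0 of Rag2. Any part of reads from the shared bases in the Rag2 count was not tested.

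The genes of the surrogate light chain were reduced to different degrees. Vpreb1 was at 63.08, 97.46 and 57.94 normalized counts in control and at 13.87, 9.37 and 15.99 in the knockout-labelled libraries. That is 5.57-fold lower (log2 fold change -2.38, SE 0.44, limma adjusted p = 0.00244), and some reads stayed in each library. Vpreb1 has a close copy, Vpreb2, in whose transcripts 18.8% of its 50-base windows also occur, so its count is uncertain. Vpreb1 also shares 9.01% of its exon bases with the more abundant Top3b on the opposite strand. As for Rag2, any part of reads from the shared bases in the Vpreb1 count was not tested. Vpreb2 itself was at 12.74 ± 5.77 in control and at 1 read in all in the knockout-labelled libraries, under the filter. Vpreb3, a related protein that binds immunoglobulin chains in the endoplasmic reticulum of pre-B cells, was at 71.97, 77.39 and 45.46 in control. Of its 213 reads all were in control libraries and 0 in the 3 knockout-labelled ones, which makes it at least 20.0-fold lower with the floor at 3 reads per library (log2 fold change -6.01, SE 0.71, limma adjusted p = 0.000148). Igll1, which encodes the λ5 partner of VPREB1, was at 160.6 ± 23.16 and 88.37 ± 16.48 (log2 fold change -0.86, limma adjusted p = 0.0329). Igll1 was no longer called with control replicate 1 (adjusted p = 0.0563), 2 (0.133) or 3 (0.0935) left out, nor with knockout replicate 1 (0.0667) or 3 (0.0639) left out, nor with genes of 1 read kept (0.0526). Vpreb1 counts were 45.2, 52.6 and 36.9% of Igll1 counts in control and 18.1, 8.74 and 19.7% in the knockout-labelled libraries.

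Cd79a and Cd79b, whose products form the signalling pair of the B cell receptor, did not move by the same amount. Cd79a was at 162.6, 152.9 and 173.8 normalized counts in control, the narrowest control spread of the 9 genes, and at 7.467, 4.165 and 9.135 in the knockout-labelled libraries. It was 23.6-fold lower (log2 fold change -4.43, SE 0.42, limma adjusted p = 3.6e-05). Cd79b was at 1765, 1952 and 1656 in control and at 1093, 1304 and 995.8 in the knockout-labelled libraries, 1.58-fold lower (log2 fold change -0.67, SE 0.14, limma adjusted p = 0.00479). Cd79b thus stayed at 995.8 normalized counts or more in every library. Cd79a counts were 9.21, 7.83 and 10.5% of Cd79b counts in control, against 0.683, 0.319 and 0.917% in the group labelled knockout. The percentages of the groups did not overlap. An exact 2-sided permutation test on the log of this ratio, and on that of Vpreb1 to Igll1, gave p = 0.1 for each. That is the smallest p that 3 libraries against 3 allow. Groups that do not overlap always give it, so these p-values add nothing to the percentages.

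Downstream of the receptor, the adaptor gene Blnk and the inhibitory co-receptor gene Cd22 were almost or wholly without reads in the libraries labelled knockout. Blnk, which links the kinase SYK to phospholipase Cγ2, was at 133.3, 84.08 and 49.02 normalized counts in control. Of the knockout-labelled libraries, replicate 2 held 3 Blnk reads and the others 0, compared with 293 reads in control. The ratio of reads was 82.2 (95% exact counting interval 27.9 to 401), and the log2 fold change was -5.69 (SE 0.76, limma adjusted p = 0.000335). Cd22, a sialic acid-binding receptor that dampens B cell receptor signals, was at 41.76, 44.91 and 32.09 in control and had 0 reads in the 3 knockout-labelled libraries. It was at least 12.2-fold lower (log2 fold change -5.33, SE 0.77, limma adjusted p = 0.000554). An antisense gene, Gm29439, which shares 9.5% of the Cd22 exon bases in GENCODE, has no row under that identifier in the deposited table.

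**Figure D2:**
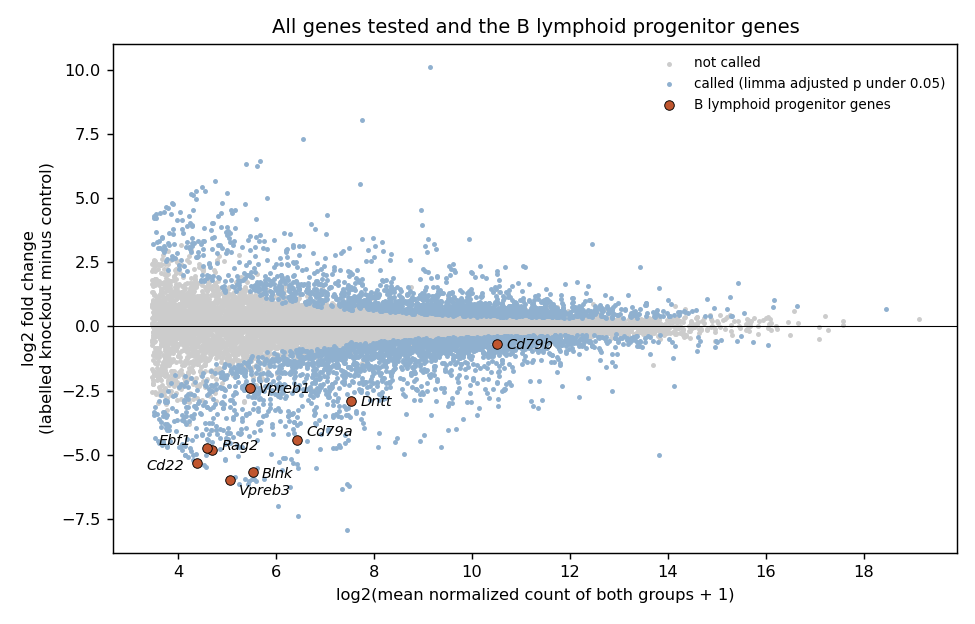
Log2 fold change (labelled knockout minus control) against log2(mean normalized count of both groups + 1) for the 14391 genes tested; pale blue points were called at a limma adjusted p under 0.05, grey points were not, and outlined orange points are the 9 B lymphoid progenitor genes. Cd79b, at -0.67, lies close to the grey band, and 6 of the genes lie below -4.

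Per kilobase of exon, control levels of the 9 genes spanned a wide range. Cd79b led with 1250 ± 105 normalized counts per kilobase (SD, n = 3). Dntt (142 ± 45.4) and Cd79a (112 ± 7.18) came next, and their library ranges overlapped. Vpreb3 (75.6 ± 19.9) and Vpreb1 (60.7 ± 17.9) overlapped each other, as did Blnk (14.8 ± 7.07) and Rag2 (14.2 ± 2.37), and Cd22 (7.85 ± 1.32) and Ebf1 (4.68 ± 1.82). The other neighbours in this order did not overlap. Exon lengths are from GENCODE M21, another build than the authors' files, so these levels are approximate.

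Control replicate 3 was the lowest control library for 7 of the 9 genes, and control replicate 2 was the highest for 6. The exceptions to the low value in replicate 3 were Cd79a and Rag2, which were highest there. The widest control spread was that of Blnk, 2.72-fold from lowest to highest library, followed by Ebf1 (2.32-fold) and Dntt (1.96-fold). Cd79a (1.14-fold) and Cd79b (1.18-fold) varied least.

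In the genome, several of these genes lie beside each other or beside related genes. In RefSeq GRCm38.p6, Blnk and Dntt are adjacent protein-coding genes, Rag2 lies beside Rag1, and Vpreb1 beside Igll1. The 9 genes have 16 other protein-coding neighbours, of which 9 were tested. Of all genes tested, 15.0% were called lower and 11.8% higher. Igll1, B230118H07Rik and Gm5134 beside Vpreb3 (log2 fold change -3.69, limma adjusted p = 0.00811) fell, Rps19 beside Cd79a and Top3b beside Vpreb1 rose, and 4 were not called. Top3b shares 9.01% of the Vpreb1 exon bases on the opposite strand and moved the other way, from 2619 ± 186.7 to 4009 ± 374.8.

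Of 68 other B-lineage genes in 5 lists, 67 were matched and 53 tested, and 19 of these fell and 3 rose (15.0% and 11.8% of all genes tested). Their median log2 fold change was -0.37, against 0.01 over all genes tested. Counts in each list below are to be set beside the same shares, 15.0% lower and 11.8% higher. Several listed genes called lower, such as Pou2af1, Spib, Ms4a1 and Ncr1, passed the filter of 10 only because control libraries were high. Cd5, called higher, passed it only through the knockout-labelled libraries. The list counts are therefore descriptions.

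Among 12 B-lineage transcription factors, 9 were tested, and 3 fell and 0 rose. Pou2af1, the B cell co-activator of octamer-binding factors, went from 24.63 ± 9.486 to 0.7613 ± 1.319 (log2 fold change -4.03, limma adjusted p = 0.00604). Spib, an ETS factor of B cells and plasmacytoid dendritic cells, was at 23.1 ± 11.59 and 2.284 ± 3.956 (adjusted p = 0.023). Spib was not called when control replicate 3 (0.0792) or knockout replicate 1 (0.052) or 2 (0.0633) was left out. Irf8, which acts in B cells, monocytes and dendritic cells, fell 4.25-fold, from 5933 ± 266 to 1396 ± 897.6. Pax5, the factor that holds B cell identity and a target of EBF1, was at 5.13 ± 1.214 in control and 0 in the knockout-labelled libraries, under the filter. Tcf3, which encodes the E2A proteins that act with EBF1, was at 596 ± 91.46 and 786.1 ± 92.26 (log2 fold change 0.40, SE 0.17, limma adjusted p = 0.0947), and Ikzf1 (Ikaros) at 1405 ± 120.6 and 1663 ± 150.2 (adjusted p = 0.19).

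Among 23 receptor complex and signalling genes, 18 were tested, and 8 fell and 0 rose. Ms4a1 (CD20), a B cell surface protein, fell from 112.2 ± 17.89 to 4.241 ± 4.897, 26.5-fold. Fcrla, an Fc receptor-like protein of B cells, was at 40.81 ± 23.4 and 2.082 ± 3.607 (limma adjusted p = 0.00765; 0.0506 when control replicate 2 was left out). Chosen after their values were seen, the immunoglobulin constant genes Ighm and Igkc were also lower. Ighm was at 7769, 8318 and 7892 in control and at 2632, 4639 and 639.5 in the knockout-labelled libraries (limma adjusted p = 0.0134, but 0.0974 in DESeq2 and 0.0986 in limma without the trend), so that knockout replicate 3 was the lowest. Igkc was at 703.7, 1339 and 1957 in control and at 281.6, 305.1 and 41.11 in the knockout-labelled libraries (adjusted p = 0.0047, but 0.0585 without the trend). Lyn, a kinase of the same receptor that myeloid cells also use, fell 1.39-fold, from 2598 ± 182.7 to 1862 ± 259.3 (limma adjusted p = 0.0197), and was not called with control replicate 2 (0.0758) or 3 (0.0927) left out or without the trend (0.0813). Syk, the kinase next to the receptor, was at 1152 ± 87.98 and 1076 ± 72.84 (log2 fold change -0.10, SE 0.13, adjusted p = 0.623), Btk at 2425 ± 130.2 and 2592 ± 79.7 (0.10, SE 0.11, 0.553) and Plcg2 at 1088 ± 61.94 and 1092 ± 113.9 (0.00, SE 0.13, 0.996). Syk, Btk and Plcg2, which act beside BLNK, are also used by myeloid cells, and like Lyn they were chosen after their values were seen.

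Of 11 genes of V(D)J recombination and end joining, 10 were tested, and 2 fell and 0 rose. This count is near the share over all genes tested (15.0% lower, 11.8% higher). The ligase gene Lig4 was 5.39-fold lower, at 77.87 ± 12.85 and 14.45 ± 2.356 (limma adjusted p = 0.00153). Nhej1, which assists it, fell 1.89-fold (0.00673). Of 11 early lymphoid genes, all were tested, and 4 fell and 0 rose. Ly6d, which marks the B-biased lymphoid progenitor, fell from 87.56 ± 22.78 to 9.82 ± 8.72 (limma adjusted p = 0.0101, but 0.0627 without the trend). The chemokine receptor gene Ccr9 was left with 1 read in the group labelled knockout, from 22.71 ± 18 normalized counts in control (adjusted p = 0.0114). Cd93, a surface protein of early B and myeloid progenitors, went from 3765 ± 706.1 to 859.9 ± 66.75 (4.38-fold lower). Il7r, the receptor of the main cytokine of B cell progenitors, was at 27.92 ± 20.54 and 6.337 ± 6.58 and not called (limma adjusted p = 0.102; 0.0473 when knockout replicate 3 was left out). Flt3, the cytokine receptor of lymphoid and multipotent progenitors, was at 562.4 ± 37.32 and 871.2 ± 342.7 (limma adjusted p = 0.087, 0.0333 in DESeq2).

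Of 11 mature B and plasma cell genes, 5 were tested, and 3 rose and 2 fell. Sdc1 (CD138), a surface proteoglycan of plasma cells and other cells, rose from 46.22 ± 8.698 to 240.6 ± 66.71 (log2 fold change 2.33, SE 0.31, limma adjusted p = 0.000311). The tetraspanin gene Cd37 rose 1.75-fold and Xbp1, a factor of secretory cells, 1.34-fold (adjusted p = 0.0201). Leaving out control replicate 1 (0.0822), 2 (0.0942) or 3 (0.06) or knockout replicate 2 (0.0502) ended the Xbp1 call. Without the trend the calls of Cd37 (0.0517), Xbp1 (0.0863) and Jchain (0.0533) were lost. Mzb1, a chaperone of antibody secretion, fell from 37.18 ± 17.74 to 1.87 ± 2.394 and Jchain, which links secreted antibody, from 488.5 ± 118.7 to 90.56 ± 65.88. Cd40, Cxcr5 and Fcmr were read in control (means of 15.09, 8.221 and 14.43 normalized counts) and at 0 in the other group, all under the filter.

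**Figure D3:**
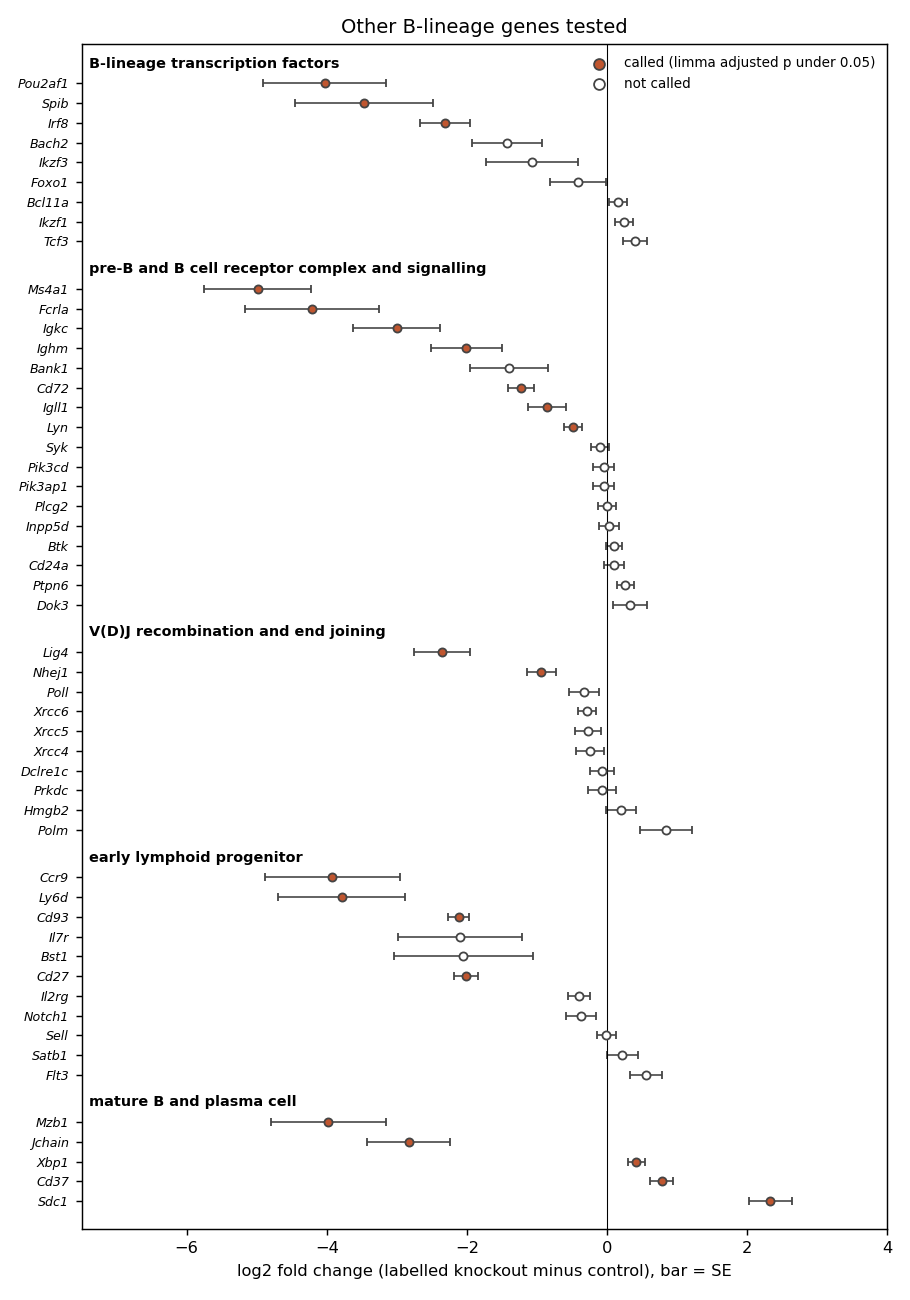
Log2 fold change (labelled knockout minus control) with its SE for other B-lineage genes tested, by list; filled points were called at a limma adjusted p under 0.05, open points were not. Ms4a1, Fcrla and Pou2af1 (-4.03) lie below -4, and the points of Syk, Btk and Plcg2 lie near 0.

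Markers of other cells were read beside the B lymphoid genes, and several moved in the same direction. Of 10 plasmacytoid dendritic cell markers, 7 were tested, and 4 fell and 2 rose (15.0% and 11.8% of all genes tested). Siglech went from 71.49 ± 25.83 to 10.49 ± 10.96 (limma adjusted p = 0.0191, lost without control replicate 2 at 0.0661 or 3 at 0.0691, and without the trend at 0.0862), Tcf4 from 1079 ± 70.29 to 147.5 ± 46.01 and Bst2 from 1004 ± 120 to 249.3 ± 70.03. Klk1 and Pacsin1 were at 0 in the group labelled knockout and low in control, at 2.371 ± 2.714 (also 0 in control replicate 2) and 5.237 ± 3.947. Runx2 and Lair1 rose 1.47-fold and 1.43-fold, calls that were each lost when any 1 control replicate (adjusted p of 0.0644 to 0.146) or some knockout replicates were left out, and in limma without the trend (0.066 and 0.124); that of Runx2 was also lost with a replicate block (0.0666). The summed level of this list, mostly Ly6c2, was 62500 to 72040 in control and 50650 to 103400 in the knockout-labelled libraries. As background, Dntt, Blnk, Spib and Ly6d are also read in plasmacytoid dendritic cells or their progenitors.

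Of 15 T cell markers, 7 were tested, and 2 fell and 3 rose (15.0% and 11.8% of all genes tested). The adhesion gene Cd2 had 0 reads in the knockout-labelled libraries (control mean 33.37 ± 13) and the kinase gene Lck fell 4.10-fold, while Tcf7 rose 10.8-fold. Cd5 (2.693 ± 1.751 and 22.25 ± 16.79, limma adjusted p = 0.0363) and Lat (191.3 ± 44.88 and 385 ± 148.3, 0.0303) also rose. Cd5 was not called with control replicate 1 (0.0651) or 2 (0.101) or knockout replicate 3 (0.0593) left out or with a replicate block (0.0502), nor Lat without the trend (0.0983) or without control replicate 2 (0.122) or knockout replicate 1 (0.0632) or 3 (0.101). The T cell list summed to 439.5 to 600.8 in control and 657 to 1168 in the knockout-labelled libraries, where Cd4, Bcl11b and Cd2 were at 0. Most of the knockout-labelled sum was Lat and Tcf7, the latter at 42.24 ± 14.09 in control and 457.3 ± 94.24 in the knockout-labelled libraries. In control, Cd4 was at 16.85 ± 12.28 and Bcl11b had 1 read in all. Of 8 NK cell markers, 6 were tested, and 5 fell, led by Ncr1 (93.68 ± 52.9 to 1 read in all), Klra8 (31.32 ± 20.54 to 0 reads) and Klrd1 (12.6-fold lower). Nkg7, which is also read in myeloid cells, rose 1.61-fold and made up most of the sum of this list, 28350 to 30550 in control and 36450 to 56020 in the knockout-labelled libraries. Eomes, at 8.776 ± 1.644 in control, and Klra8 were at 0 in the latter. Without the trend the Nkg7 call was lost (adjusted p = 0.0576).

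Among the 11 GMP markers, 5 rose and 2 fell (11.8% and 15.0% of all genes tested). Cebpe, Ms4a3 and Ctsg rose 1.89-fold, 1.71-fold and 1.62-fold. In limma without the trend the calls of Cebpe (adjusted p = 0.0703), Elane (0.0867) and Kit (0.0667) were lost. Elane was also not called by limma with genes of 1 read kept (0.0696) or with control replicate 1 (0.09), 2 (0.0902) or 3 (0.123) left out. Among genes used in the sort, Cd34 (11500 ± 296.5 to 3963 ± 243.6, limma adjusted p = 5.04e-06) and Fcgr3 (1.69-fold) fell in the same libraries as the B lymphoid genes. Kit, which encodes c-Kit, rose 1.39-fold, from 1096 ± 86.07 to 1524 ± 151.5 (limma adjusted p = 0.0214), but was not called with control replicate 1 (0.0783) or 3 (0.0936) or knockout replicate 3 (0.054) left out. The list summed to 889600 to 963800 in control and 1105000 to 1601000 in the knockout-labelled libraries. Most of this sum was Mpo, which was not called (limma adjusted p = 0.251), and Elane. The part of other cells in the sort, of the gate genes and of the higher sum of GMP markers in the B lymphoid result was not tested.

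**Figure D4:**
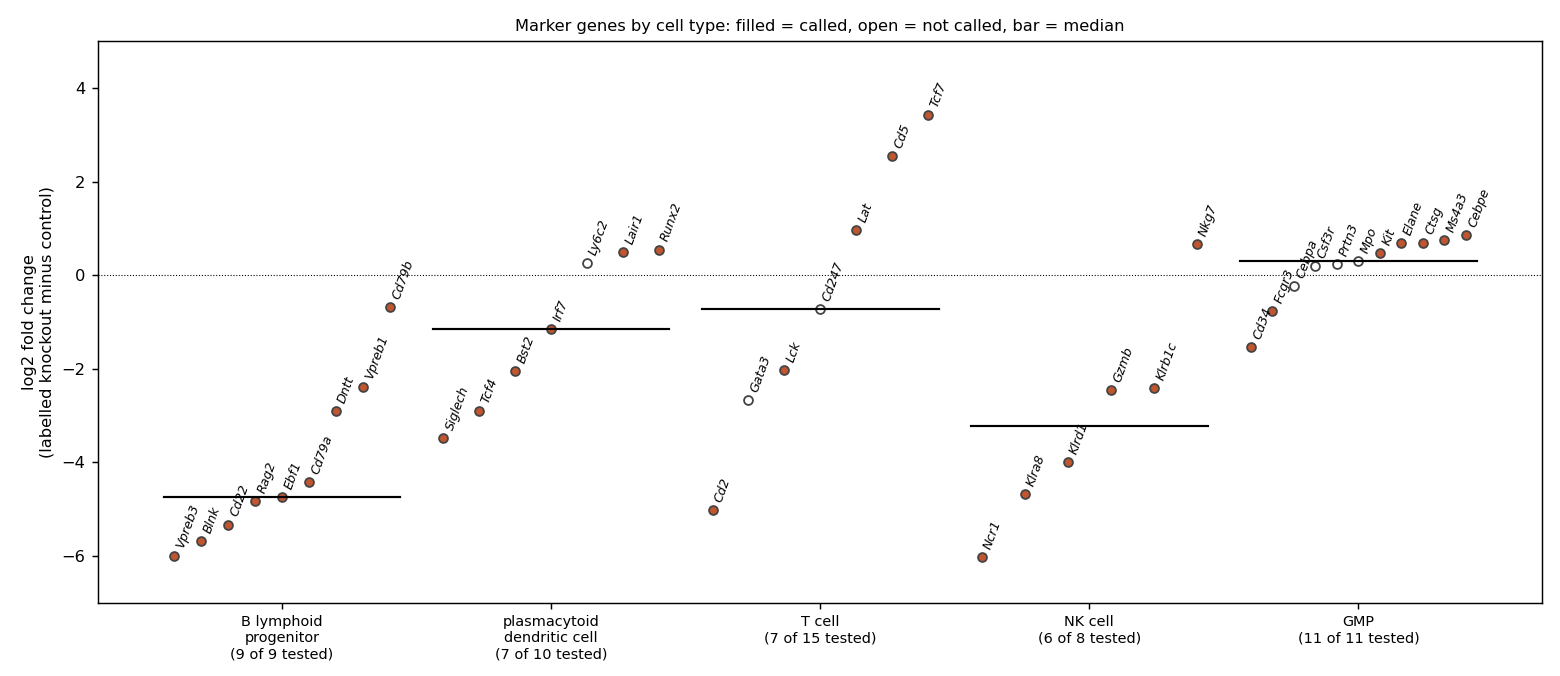
Log2 fold change (labelled knockout minus control) of the tested B lymphoid progenitor genes and of the tested markers of 4 cell types; filled points were called at a limma adjusted p under 0.05, and black bars are medians over the tested genes (-4.75, -1.15, -0.72, -3.23 and 0.30 from left to right). Genes tested had a mean of at least 10 normalized counts, and Nkg7 lies above 0 and the 5 other called NK cell markers below it.

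By the distance between log2 profiles over the 6 libraries, each centred on its mean, the 5 genes most like the mean of the 9 were Dusp22 (distance 0.54), Exoc3l (0.63), Procr (0.67), Stat4 (0.72) and Pipox (0.72). Dusp22, a phosphatase gene, was at 160.8, 126.1 and 115.9 normalized counts in control and at 8.534, 9.37 and 6.852 in the knockout-labelled libraries. Of the 9 genes themselves, Ebf1 (1.19) and Cd79a (1.26) were closest to their mean and Cd79b (4.23) farthest from it. These distances are descriptions over 6 libraries in which the group difference dominates.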

How the data were processed

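Per the labels' protocols, GMP RNA went through SMARTer low-input amplification and an Ion Total RNA-Seq kit (6 libraries). HTSeq, DESeq2, STAR, Picard and BWA 0.7.5a are listed with no roles, per the submitters' processing notes, as are mm9 and NCBIM37. The deposited signal per gene was, from the values, a gene count which the authors scaled by a size factor for each library: 99.99 to 100% of values above 0 were whole multiples of the smallest value (tolerance 0.01 of a read), which gave back whole reads. Rows naming no gene (5) held 74.8 to 77.1% of reads and were left out of library sizes and tests. Reads with several alignments form 1 of these rows. Symbols from GENCODE M21 matched 32897 of 37620 gene identifiers, and promoters are from RefSeq GRCm38.p6.

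On log2(value + 1), limma 3.58.1 in R 4.3.3 was fitted with its trend option to genes averaging 10 or more, and genes were called at 0.05 after Benjamini-Hochberg adjustment of 2-sided p-values. Fold changes on this scale understate low genes; other folds are ratios of group means. Alternatives on recovered reads were edgeR 4.0.16, which called 1687 genes higher and 2077 lower of 14458, and DESeq2 1.42.0. The members, lists and tests were chosen with earlier results of these data known. Named from each list were the called genes with the largest changes, up to 3 in each direction, and those called against most of their list; other genes named from a list were chosen after their values were seen. A listed gene is counted but not reported here by name.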

Additional observations from a re-analysis of the deposited data

How the results depend on the processing

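Gene calls and counts of calls were recomputed under up to 15 alternatives: pseudocounts of 0.5 and 4, no filter beyond 1 read, a mean of at least 50, TMM scaling, edgeR, DESeq2, no mean-variance trend, a replicate block, and each of the 6 libraries left out. Ratios between genes, levels per kilobase, list medians and sums, profile distances and motif matches were computed in 1 way. Wherever they were tested, the 9 B lymphoid progenitor genes were called lower, with the highest adjusted p at 0.0358 (Cd79b in limma without the trend). At a mean of at least 50 only Cd79a, Cd79b and Dntt were tested, so the count of B lymphoid genes called was 3, and the other B-lineage genes called lower were 11. Without the trend, 1113 genes were higher in all and 1 other B-lineage gene was higher. With libraries left out, B lymphoid genes called lower stayed at 9 to 9 and higher at 0 to 0, other B-lineage genes ran from 15 to 20 lower and 2 to 5 higher (5 without knockout replicate 3), and all genes from 1413 to 2354 lower and 1058 to 1796 higher. The lowest totals were those without control replicate 2 (1058 higher, 1422 lower) and 3 (1105 and 1413).

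Replicate numbers are shared between the groups in the labels, but nothing there ties same-numbered libraries. The deviations from the group means of same-numbered libraries correlated at -0.10, 0.04 and -0.06 across genes. With a replicate block, 9 B lymphoid genes and 20 other B-lineage genes were lower, 0 and 3 were higher, and in all 1550 genes were higher and 2014 lower. Among named genes the block ended the calls of Cd5 (0.0502) and Runx2 (0.0666), and Bank1 of the signalling list was gained (0.0484). Fitted changes of the 5 genes with 0 to 4 reads in a group moved with the pseudocount, for Cd22 from -6.31 to -3.43, Vpreb3 -7.0 to -4.07, Ebf1 -5.33 to -3.33, Blnk -6.41 to -4.15 and Rag2 -5.53 to -3.36, and those of Cd22 and Vpreb3 were -8.33 and -9.04 in edgeR, so they are no bound. Depth limits what is said of genes left at 0 to 4 reads: a count of 0 allows up to 3 reads per library, or 3.12 to 3.43 normalized counts.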
